A study of Mus musculus with 5 samples.

Results

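One day of exposure to MPA was examined in mouse embryonic stem (ES) cell-derived cells, by setting the array of day 6 cells with MPA against the array of day 6 cells without it. The ES cells were grown on plates coated with gelatin and differentiated in the direction of pancreas, and MPA was added at 2 µM on day 5, so that treated cells had 1 day of exposure at day 6. The day 6 control cells were grown for the same 6 days without MPA. The other 3 arrays of the study were a day 5 control, a day 8 control and day 8 cells with 3 days of MPA, and they enter only where they are named. MPA is written here as the labels write it, which give no full name, and the labels used here name neither the ES cell line nor how many cultures stand behind an array. The comparison takes in 2 of the 5 arrays, 1 per group, and all 18193 genes that a probe set with a single gene symbol represents.

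Of these genes, 12240 had a signal above a floor on at least 1 of the 2 arrays and are called measured. The floor of 86.8 is the median of all signals other than those of control probe sets, and lower signals were raised to it before log2 was taken. Both arrays were above the floor for 10064 genes, 1 array for 2176 genes, and neither for the remaining 5953. With 1 array per group no test can be made, no value carries a spread between cultures, and the number of arrays limits the precision. "Higher" and "lower" therefore describe these 2 arrays. Genes at least 2-fold apart were counted, and where 1 of the arrays lay under the floor the fold is only bounded from below, written "at least".

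ES cells on the way to pancreas first form definitive endoderm, an epithelium marked by the transcription factors Foxa2 and Sox17, which retinoic acid then patterns along the body axis before pancreatic factors such as Pdx1 appear. Such cultures commonly hold neural and mesodermal cells beside the endoderm. Growing cells take much of their energy from glycolysis and make sterols, amino acids and nucleotides, and these supply routes have known regulators: HIF for glycolysis and the response to low oxygen, SREBP for cholesterol synthesis and ATF4 for amino acid supply.

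The endoderm markers were present at day 6. Foxa2 had a signal of 1378 in the control and 2236 with MPA, Sox17 3669.9 and 8178, and the epithelial adhesion gene Epcam 9158 and 8534. Pdx1, which defines the pancreatic progenitor, was under the floor on both arrays, and so were the endocrine factor genes Neurog3, Insm1 and Pax4. Other members of both lists were measured. Of 12 pancreatic progenitor factors 10 were, 5 higher and 5 lower with MPA, 0 of them 2-fold, with a median log2 difference of 0.16. Of 9 endocrine factors 3 were measured, 1 of them 2-fold higher and 2 of them 2-fold lower. Genes of the pluripotent state were still measured, with Pou5f1 at 1016 and 909.9. These arrays measure a mixture of cells, and fewer cells of a type and less RNA per cell cannot be told apart.

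Both arrays were scaled to the same 2% trimmed mean of 500, and their log2 signals correlated across genes at r = 0.961, where genes are not independent replicates. Among the 19 bacterial and phage spike-in probe sets with a signal above 1000, log2 differences ran from -0.23 to 0.18 (SD 0.11), which is a technical spread only. The 3'/5' signal ratio, a sign of RNA integrity, was 1.19 in the control and 1.31 with MPA for Gapdh, and 3.04 and 3.06 for Actb. The share of probe sets above the floor was 49.9% in the control and 46.7% with MPA.

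With MPA, 492 of the 12240 measured genes were higher by 2-fold or more (4.02%) and 385 lower by 2-fold or more (3.15%). Of these, 113 and 118 had 1 array at the floor. The median log2 difference over all measured genes was 0.02, with 51.5% higher and 48.5% lower, and 9 in 10 genes lay between -0.85 and 0.93. Which direction held more genes depended on the scale: log2(signal + floor) gave 415 higher and 492 lower, and median centring 429 and 442. The bright end of the array was less evenly divided. Of 1102 genes with a signal above 5000 on 1 of the arrays, 34 were 2-fold lower and 8 were 2-fold higher with MPA. Quantile normalization, which gives both arrays the same distribution, moved the median of these bright genes from -0.08 to 0.02 and the counts to 28 lower and 11 higher. Of the 34, 16 belong to 4 lists described next, glycolysis, hypoxia targets, cholesterol synthesis and amino acid supply. Together these lists hold 72 different measured genes, 39 of them 2-fold lower, where the share over all measured genes was 3.15%. A gene's value rests on its brightest probe set. Where another choice of probe sets ended a 2-fold difference, turned it or moved it by over 1.5 times, the log2 difference is also given as the mean over its probe sets ("mean") or from its specific probe sets ("specific"), those whose names do not mark binding to several transcripts.

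**Figure D1:**
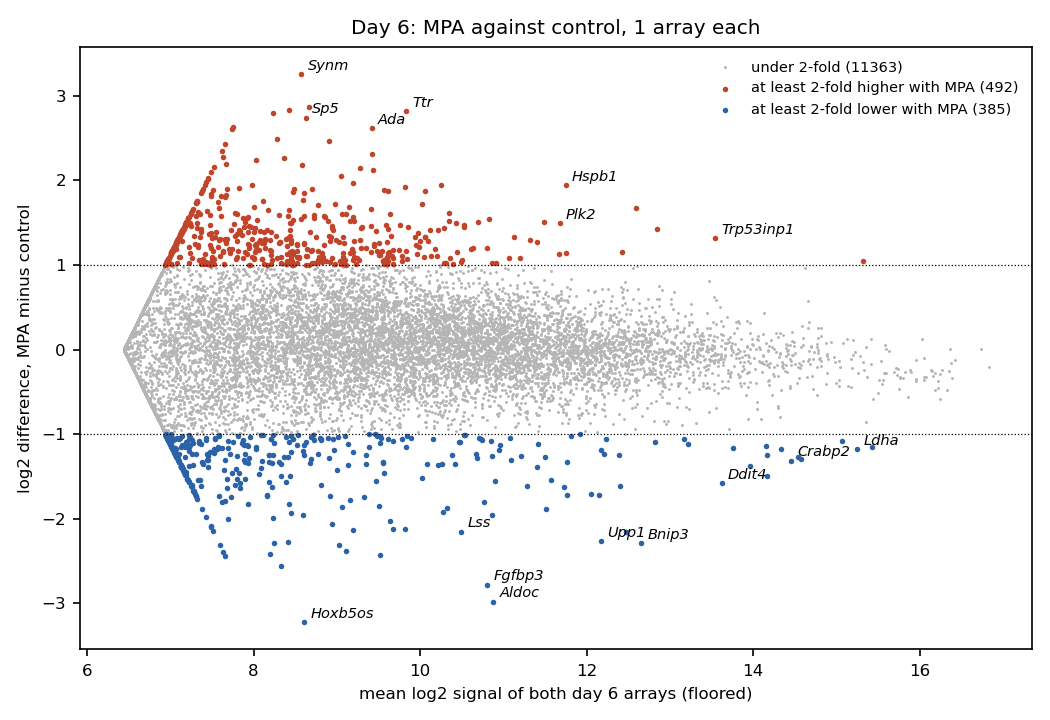
Each point is 1 of the 12240 measured genes, with the mean floored log2 signal of both day 6 arrays on the x axis and the log2 difference, MPA minus control, on the y axis. Red marks the 492 genes at least 2-fold higher and blue the 385 at least 2-fold lower. The straight edges on the left are genes with 1 array at the floor, and at the right, above a signal of 5000, most of the 2-fold genes are blue.

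The glycolysis list was lower with MPA throughout. All 14 of its measured genes were lower, 10 of them at least 2-fold, with a median log2 difference of -1.17 beside 0.02 over all genes. Hk2, of a hexokinase, had a signal of 7644 in the control and 2346 with MPA, 3.26-fold lower. Pfkp, of a phosphofructokinase, had 2421 and 639 (3.79-fold lower), and the liver-type Pfkl 2879.7 and 1207 (2.38-fold lower). The next enzymes of the chain followed the same direction. Aldoa, of aldolase, had 37074 and 15308 (2.42-fold lower), Tpi1, of triose phosphate isomerase, 31236 and 13777 (2.27-fold lower), and Ldha, of lactate dehydrogenase, 58634 and 26009.7 (2.25-fold lower). Pdk1, whose kinase keeps pyruvate out of mitochondria, had 4378 and 1429 (3.06-fold lower). Further probe sets above the floor were lower too for 4 of 4 of Aldoa, 3 of 3 of Pdk1, and 2 of 2 of both Pfkl and Tpi1, and Ldha and Hk2 had none. Pfkl stood at -0.23 (specific), and Ldha at -0.99 under quantile normalization. The smallest differences of the list were those of the glucose transporter Slc2a3, from 54606 to 42445, and the lactate transporter Slc16a3, from 254 to 204. Aldoc, of the brain-type aldolase and not in the list, had the second lowest difference of all genes above the floor on both arrays, with 5293 in the control and 671 with MPA, 7.89-fold lower. Gapdh is itself a glycolysis gene, and its 3 control probe sets had log2 differences of -0.66, -0.80 and -1.03, against -0.18, -0.19 and -0.28 for the 3 of Actb.

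Targets of HIF outside glycolysis were lower as well. All 15 measured genes of that list were lower, 9 at least 2-fold, with a median of -1.30. Bnip3, of a mitochondrial mitophagy receptor, had a signal of 14278 in the control and 2921 with MPA, 4.89-fold lower. Ankrd37 had 668 and 137, 4.87-fold lower. Egln3 and Egln1, of the prolyl hydroxylases that mark HIF for destruction, had 1614 and 395 (4.09-fold lower) and 3272 and 1117 (2.93-fold lower). These are feedback genes of the pathway. Ero1a, of an oxidase for disulfide bonds, had 5640.0 and 1525 (3.699-fold lower), and Ddit4, of an inhibitor of the growth kinase mTORC1, 21819.5 and 7311 (2.98-fold lower). The angiogenic factor Vegfa was less than 2-fold lower, with 666 and 426. Car9, a standard marker of hypoxia, was under the floor on both arrays. Over all alternatives to the processing the median of this list stayed between -1.45 and -1.19, and that of the glycolysis list between -1.21 and -1.01.

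The core sequence ACGTG, which HIF dimers bind, was searched on both strands in the 250 bases before the annotated starts. HIF targets are known for this sequence, so its presence in them is a description and not a separate result. It was present in 11 of 18 start windows (61.1%) of the 13 hypoxia genes with a window and in 9 of 19 (47.4%) of the 13 glycolysis genes, against 16.6% of 32851 windows of all genes. The windows of a gene with several starts overlap. A match describes these letters and not binding, and no allowance was made for base composition. The windows of Bnip3, Ankrd37 and Hk2 are shown because, of the members with a match, these had the largest differences in their lists. They come from RefSeq (GRCm38.p6), and capitals mark the matches, ACGTG or, on the other strand, CACGT. Bnip3 lies at chr7:138909507-138909756, Ankrd37 at chr8:45999851-46000100 and Hk2 at chr6:82774455-82774704, all on the minus strand, and each ends at the base before the start.
Bnip3: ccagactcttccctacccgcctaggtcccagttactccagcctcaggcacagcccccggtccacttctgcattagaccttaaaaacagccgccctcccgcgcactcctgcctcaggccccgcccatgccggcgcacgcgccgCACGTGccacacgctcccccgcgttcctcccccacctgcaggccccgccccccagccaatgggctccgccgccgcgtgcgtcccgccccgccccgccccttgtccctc
Ankrd37: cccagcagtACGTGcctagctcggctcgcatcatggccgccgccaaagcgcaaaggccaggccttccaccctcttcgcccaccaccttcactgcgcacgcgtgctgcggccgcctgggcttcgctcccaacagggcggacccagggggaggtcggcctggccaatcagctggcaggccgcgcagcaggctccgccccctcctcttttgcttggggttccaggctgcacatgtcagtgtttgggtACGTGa
Hk2: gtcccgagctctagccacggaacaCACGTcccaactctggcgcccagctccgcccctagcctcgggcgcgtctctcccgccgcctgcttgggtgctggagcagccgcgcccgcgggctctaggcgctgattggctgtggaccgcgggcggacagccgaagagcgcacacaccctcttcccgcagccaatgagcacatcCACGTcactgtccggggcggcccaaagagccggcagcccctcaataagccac
In Bnip3 the capitals hold the palindrome CACGTG, read as a match on each strand, 108 bases before the start. In Ankrd37 the matches begin 241 and 6 bases before the start, and in Hk2 226 and 52 bases before it.

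Cholesterol synthesis was also lower throughout. All 18 measured genes were lower, 11 at least 2-fold, with a median of -1.21 (-1.26 to -0.87 over the alternatives). The differences ran along the pathway from its entry to its last steps. Hmgcs1, of the synthase that makes HMG-CoA, had a signal of 38158 in the control and 15546 with MPA (2.45-fold lower), with 3 of 4 further probe sets lower. Mvd, of mevalonate decarboxylation, had 1047 and 409 (2.56-fold lower), and Fdps, of farnesyl diphosphate synthase, 8279 and 3491 (2.37-fold lower). Lss, of the enzyme that closes the sterol rings, showed the largest difference, with 3037 and 683, 4.45-fold lower. Of the enzymes that then trim lanosterol, Msmo1 had 8264 and 2498 (3.31-fold lower) and Cyp51 3665 and 1529 (2.396-fold lower). These 2 and Hmgcs1 depended on the probe set: Hmgcs1 stood at -0.88 (mean) and -0.62 (specific), Msmo1 at -0.74 (specific) and Cyp51 at -0.37 (mean, with 1 of 2 further probe sets lower). Dhcr7, of the last step to cholesterol, had 1962 and 770.0 (2.55-fold lower). Insig1, of the protein that holds SREBP back when sterols are plentiful and a known SREBP target, had 5511 and 2187 (2.52-fold lower). Srebf2, the gene of the regulator itself, had 829 and 569, and Hsd17b7 had nearly equal signals of 932 and 873.

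Several genes of fatty acid supply, which were chosen after their values were seen, lay on the same side. Scd1, of stearoyl-CoA desaturase, had 12036 in the control and 2704 with MPA (4.45-fold lower), and Fasn, of fatty acid synthase, 5108 and 2513 (2.03-fold lower). Acss2, of the enzyme that makes acetyl-CoA from acetate, was among the 12 lowest genes of the comparison, with 778 and 132, 5.89-fold lower. Plin2, of the coat protein of lipid droplets, also chosen after the fact, went the other way, with 3453 and 10975 (3.18-fold higher).

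The sterol regulatory element TCACNCCAC, searched on both strands, was found in 1 of 18 windows of the 15 cholesterol genes that had one (5.56%, against 1.05% of all windows). The window of Hmgcs1 holds it, at chr13:119690101-119690350 on the plus strand (RefSeq, GRCm38.p6), and is shown because it does. Capitals mark the element, 137 bases before the start.
Hmgcs1: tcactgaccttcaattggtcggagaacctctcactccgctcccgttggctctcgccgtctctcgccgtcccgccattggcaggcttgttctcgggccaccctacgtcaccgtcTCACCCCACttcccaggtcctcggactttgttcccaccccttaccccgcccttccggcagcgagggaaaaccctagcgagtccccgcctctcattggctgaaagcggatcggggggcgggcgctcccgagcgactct

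Amino acid supply and the ATF4 response were lower in most members. Of 26 measured genes 21 were lower, 10 at least 2-fold, and 5 were higher, 0 of them 2-fold, with a median of -0.76. Transporters were among the lowest members. Slc7a5, of the carrier of large neutral amino acids, had 1381 in the control and 383 with MPA (3.603-fold lower), Slc7a3, of a carrier of cationic amino acids, 1175 and 351 (3.35-fold lower), and Slc1a4 503 and 199.8 (2.52-fold lower). Vldlr, of a lipoprotein receptor that ATF4 can induce, had 1887 and 434 (4.35-fold lower), with 5 of 5 further probe sets lower. By other probe sets Vldlr stood at -1.46 (mean) and -1.44 (specific), and Slc1a4 at -0.60 (mean) and -0.39 (specific). Among the enzymes, Mthfd2, of mitochondrial folate metabolism, had 1901 and 736 (2.58-fold lower), Asns, of asparagine synthetase, 6932 and 3325 (2.08-fold lower), and Chac1, of glutathione breakdown, 403 and 129.9 (3.103-fold lower). Atf4 itself had 3725 and 2541, less than 2-fold lower. The 5 higher genes were Sesn2, Cebpb, Atf5, Slc38a2 and Nupr1, with log2 differences from 0.06 to 0.90, and Sesn2 is also a p53 target. Ddit4 stands in this list, in the hypoxia list and in the p53 list.

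The CEBP-ATF response element TGATGNAAN, searched on both strands, was found in 4 of 26 windows of 22 members (15.4%, against 3.44% of all windows), those of Asns, Chac1, Nupr1 and Vldlr. Of these 4 genes Nupr1 was near level, with signals of 143 and 149. The windows of Vldlr (chr19:27216770-27217019) and Chac1 (chr2:119350992-119351241) are shown because, of the members with a match, these had the largest differences. Both are on the plus strand and from RefSeq (GRCm38.p6). The same run of letters, in capitals, stands in both, 201 and 194 bases before the start.
Vldlr: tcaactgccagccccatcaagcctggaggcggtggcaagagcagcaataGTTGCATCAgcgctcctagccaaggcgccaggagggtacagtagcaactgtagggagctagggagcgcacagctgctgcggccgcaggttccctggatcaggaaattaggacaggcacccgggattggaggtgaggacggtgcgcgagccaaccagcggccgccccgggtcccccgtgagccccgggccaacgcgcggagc
Chac1: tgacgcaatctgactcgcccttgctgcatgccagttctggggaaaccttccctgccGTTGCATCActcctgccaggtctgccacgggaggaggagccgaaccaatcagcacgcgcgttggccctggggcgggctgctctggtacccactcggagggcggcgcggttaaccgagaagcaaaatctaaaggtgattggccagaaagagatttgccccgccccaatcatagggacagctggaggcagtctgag

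Related lists differed by less. Genes of the unfolded protein response in the endoplasmic reticulum were lower in 16 of 20 members, with a median of -0.27 and 0 members 2-fold lower. Derl3, with 51.9 in the control, under the floor, and 176 with MPA, was at least 2.03-fold higher. Its chaperone genes included Hspa5, with 42028 and 31259, and Manf, with 7997 and 4006. Aminoacyl-tRNA synthetases, which load amino acids onto tRNA, were lower in 15 of 19, with a median of -0.26, and Mars1 was the lowest with 6888 and 3752. Subunits of the respiratory chain, the other large source of energy beside glycolysis, had a median of -0.02, with 9 of 21 higher, 12 lower and 0 at 2-fold, and 0.10 under quantile normalization.

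**Figure D2:**
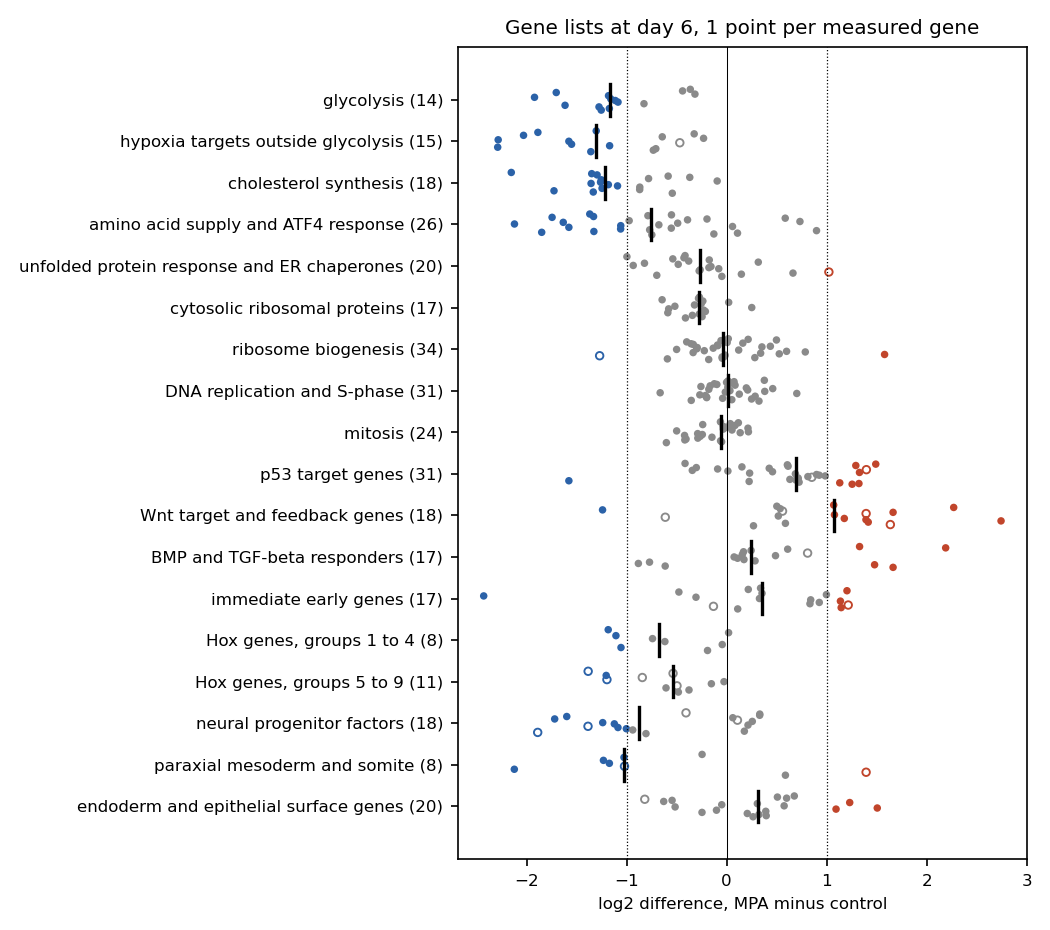
Log2 differences, MPA minus control, of the measured genes of 18 lists, 1 point per gene (number measured in brackets). Filled points have both arrays above the floor and open points are bounds, red and blue mark at least 2-fold, and the black bar is the median. All points of the first 3 lists lie left of 0, while those of ribosome biogenesis, replication and mitosis lie on both sides.

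The genes of growth and division themselves were close to level. Of 31 genes of DNA replication and S-phase 17 were higher and 14 lower, with 0 at 2-fold and a median of 0.01. Of 24 mitosis genes 8 were higher and 16 lower, again with 0 at 2-fold and a median of -0.06. Bub1b, of a spindle checkpoint kinase, had the largest difference of these, with 4381 in the control and 2885 with MPA. Ribosome biogenesis had a median of -0.03 over 34 genes, RNA polymerase I and III one of 0.01 over 21, and purine synthesis one of -0.04 over 16, where the 1 gene 2-fold lower was Mthfd2, also counted under amino acid supply. Rrp9, of a nucleolar RNA-protein complex, was the member of ribosome biogenesis at least 2-fold lower, with 209 and 85.7, the latter under the floor, and Bop1, of a preribosome factor, the member 2-fold higher, with 197 and 589 (2.99-fold higher). Ribosomal protein genes were lower in 15 of 17 members by small amounts, with a median of -0.27 and 0 at 2-fold, and Rps19, the brightest of them in the control, had 95108 and 63255. Quantile normalization turned that median to 0.02, and saturation of the probes at these signals was not tested.

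IMPDH is the enzyme that opens the branch of purine synthesis leading to guanine nucleotides. Impdh1 had 280.4 in the control and 561 with MPA, 2.002-fold higher, on 1 probe set. Its difference was less than 2-fold with log2(signal + floor), quantile normalization or median centring. Over the alternatives it went down to 0.82 on the log2 scale. Impdh2 had no probe set with a single gene symbol and was not measured. The enzymes next to IMPDH had nearly equal signals. Gmps, of the step after IMPDH, had 9197 and 8527, and Hprt, of guanine salvage, 5353 and 5385. The list of guanine nucleotide supply held 9 measured genes, 6 higher and 3 lower, with a median of 0.10. Ada, of adenosine deaminase, was among the 12 highest genes of the comparison, with 276 and 1694, 6.13-fold higher, and Upp1, of uridine phosphorylase, among the 12 lowest, with 10131 and 2113, 4.796-fold lower. Receptors of steroid hormones and genes they are known to induce had a median of 0.08 over 14 measured genes. Of its induced genes, Fkbp5 had 1430.4 and 1492 and Tsc22d3 471 and 531, while Zbtb16 had 648 and 183 (3.54-fold lower, -1.24 as the mean) and Sgk1 854 and 1707.

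Genes that p53 induces when DNA is damaged or the nucleolus is stressed were mostly higher. Of 31 measured genes 26 were higher, 7 of them at least 2-fold, where 4.02% of all genes were, and 5 were lower, of which Ddit4 was 2-fold lower. The median was 0.69 (0.62 to 0.69 over the alternatives). Cdkn1a, of the cell cycle inhibitor p21, had 2191 in the control and 4797 with MPA (2.19-fold higher). Plk2, of a kinase of the centrosome cycle, had 1950.0 and 5479 (2.81-fold higher), and Trp53inp1, of a cofactor in cell death and autophagy, 7574 and 18941 (2.501-fold higher). Phlda3, of an inhibitor of Akt, had 674 and 1691 (2.51-fold higher), and Perp, of a protein of cell junctions, 1629 and 3986 (2.45-fold higher). Mdm2, which encodes the ligase that degrades p53, had 1109 and 2106, 1.900-fold higher, and Ccng1, of cyclin G, 8564 and 15036, 1.76-fold higher. Not all targets were higher. Ddb2, of DNA repair, and Rrm2b, of nucleotide supply, had log2 differences of -0.42 and -0.30, and Sesn1, a sestrin gene of the stress response, had -0.34 but 0.12 (specific).

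The Bcl2 family, which sets the threshold of apoptosis, had 11 of 15 members higher, 3 of them 2-fold, with a median of 0.23. Bnip3 was the member 2-fold lower. The shares over all measured genes were 51.5% higher and 4.02% 2-fold higher. Both killers and guardians were among the higher members. Of the pro-apoptotic members, Bcl2l11 (Bim) had 1697 in the control and 4829 with MPA (2.85-fold higher, 0.91 on the log2 scale when specific, with 4 of 4 further probe sets higher) and Pmaip1 (Noxa), also a p53 target, 204 and 487 (2.39-fold higher). Of the anti-apoptotic members, Mcl1 had 4319 and 8398 (1.94-fold higher, 5 of 5 further probe sets higher) and Bcl2l1 339 and 695 (2.05-fold higher). Bcl2l2, another anti-apoptotic member, was lower, with 1185 and 630.2.

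Cell cycle inhibitors differed by member. Beside Cdkn1a, Cdkn2b, of the CDK4 inhibitor p15, had 187 in the control and 677 with MPA (3.63-fold higher), and the imprinted Cdkn1c, of p57, 279.6 and 804 (2.87-fold higher). Cdkn2c, of p18, had 165 and 117, and Cdkn1b, of p27, 853 and 677, both less than 2-fold lower. The D-type cyclin gene Ccnd1 had 788 and 1142 and Ccnd2 2805 and 2504, and 3 of 6 further probe sets of Ccnd2 went the other way. Of the Myc family, Myc had 365 and 802 (2.200-fold higher) and its partner gene Max 115 and 302 (2.61-fold higher), while Mycn had nearly equal signals of 2594 and 2541.

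Stress chaperones of the cytosol were level as a list, with 11 of 19 higher and a median of 0.09, but 3 members were 2-fold higher. Hspb1, of the small heat shock protein Hsp27, had 1752 in the control and 6761 with MPA (3.86-fold higher), Hspa1b, of inducible Hsp70, 379 and 921 (2.43-fold higher), and Cryab, of another small chaperone, 324 and 670.1 (2.07-fold higher). Hspa1b stood at 0.76 (specific) and Cryab at 0.56 (mean). Of the general folding machines, Hspa8 had 63922 and 69753, with 3 of 3 further probe sets higher and 1.097 (specific), and Hsp90aa1 33750.4 and 35502. In the oxidative stress list Srxn1, of sulfiredoxin, had 247 and 724 (2.93-fold higher, but 0.48 as the mean and -0.61 when specific), and Hmox1, of heme oxygenase, 513 and 246 (2.08-fold lower).

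**Figure D3:**
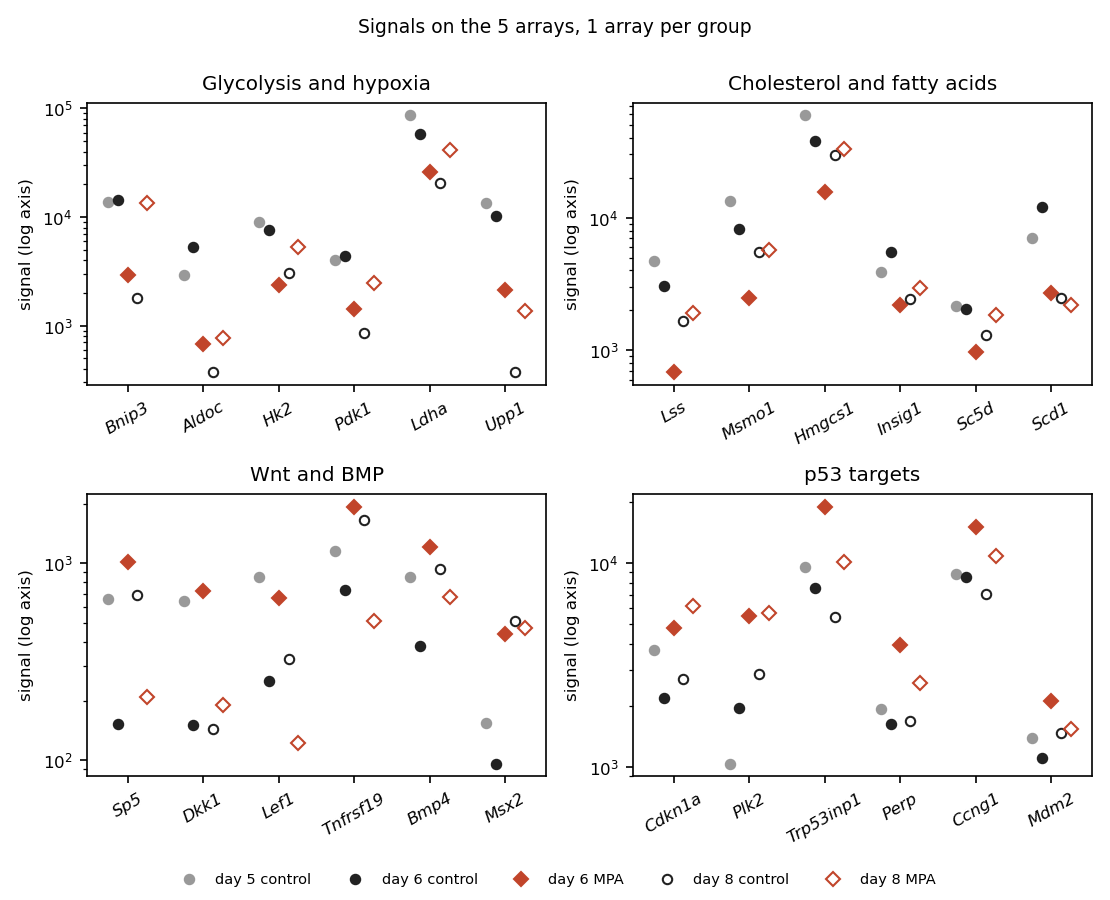
Signals (log axis) of 24 genes on the 5 arrays, 1 array per group, with circles for controls and diamonds for MPA, and filled symbols for days 5 and 6 and open ones for day 8. At day 6 the MPA signal is below the control signal in both upper panels and above it in both lower panels.

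Wnt signalling acts through beta-catenin, and cells that receive it raise a set of feedback and target genes. Of 18 measured genes of that set 16 were higher with MPA, 10 at least 2-fold, and 2 were lower, 1 of them 2-fold. Over all measured genes 51.5% were higher, 4.02% 2-fold higher and 3.15% 2-fold lower. The median of the set was 1.07 (0.81 to 1.08 over the alternatives). Sp5, of a transcription factor that Wnt induces directly, had 153 in the control and 1022 with MPA, 6.696-fold higher. Dkk1, of a secreted Wnt inhibitor, had 150.5 and 726 (4.82-fold higher), and Tnfrsf19 730.3 and 1948 (2.67-fold higher). Lef1, of a DNA-binding partner of beta-catenin, had 253 and 663 (2.63-fold higher). Axin2, the target most often used as a reporter of the pathway, was less than 2-fold apart, with 284 and 402. Ligands were among the higher genes too, with Wnt3a at 177 and 373 and Wnt8a at 10.6 and 269.7, at least 3.11-fold higher. Cdx2, a posterior gene under Wnt control, had 86.0, which is under the floor, and 228. Sp8 went the other way, with 323 and 137 (2.36-fold lower), as did Rnf43. Most of these genes are dim. In the control 16 of the 18 signals were below 400, and only 5 genes had a further probe set above the floor. Those of Dkk1, Tnfrsf19 and Ccnd1 were higher too (1 of 1, 1 of 1 and 2 of 2), as were 3 of 4 of Apcdd1, and those of Nkd1 were not (0 of 2). By other probe sets Dkk1 stood at 1.599 (mean), Nkd1 at 0.19 (mean) and Apcdd1, at 0.27 by its main probe set, at -1.099 (specific). At day 5 the signal had been 659 for Sp5, 642 for Dkk1, 848 for Lef1 and 544 for Wnt8a.

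BMP signalling was described by its ligands and the genes it induces. Of 17 measured genes 14 were higher, 4 at least 2-fold, and 3 were lower, with a median of 0.24. The shares over all measured genes were 51.5% higher and 4.02% 2-fold higher. Bmp4, a ligand that is also in the Wnt list, had 381 in the control and 1207 with MPA (3.17-fold higher), and the ligand gene Bmp2 1406 and 3533 (2.51-fold higher). The homeobox targets Msx2 and Msx1 had 95.6 and 436 (4.56-fold higher) and 129.7 and 362 (2.79-fold higher). The control signal of Msx2 was just above the floor, and its mean was 1.18. The standard response genes of the Id family differed by less. Id1 had 1718 and 2410.2, Id3 1842 and 2243, and Id2 was lower with 3743 and 2444.

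Genes of growth factor signalling through ERK, and immediate early genes, leaned to the higher side. Of 14 ERK feedback genes 12 were higher, 1 of them 2-fold, with a median of 0.36. Of 17 immediate early genes 13 were higher, 4 of them 2-fold, with a median of 0.35. Over all measured genes 51.5% were higher and 48.5% lower, with 4.02% 2-fold higher and 3.15% 2-fold lower. Jun had 2319.6 in the control and 5129 with MPA (2.21-fold higher), and Nr4a1, of an orphan nuclear receptor, 163 and 375 (2.302-fold higher). The ERK inhibitor gene Spry2 had 794 and 1510.2, less than 2-fold higher. The 1 gene 2-fold lower in each was Ier3, which both lists hold, with 1694 and 315, 5.38-fold lower. FGF genes did not share the direction: 8 of 12 measured were lower. Fgf15, an FGF made in the neural tube and gut, had 677 and 127 (5.32-fold lower), and Fgfbp3, of a protein that carries FGFs, 4679.7 and 682 (6.87-fold lower). Of the receptors, Fgfr2 had 1131 and 810.3 and Fgfr3 124 and 204. In the Notch list 12 of 17 members were lower, 3 of them 2-fold, and Notch1, of the receptor, was the member 2-fold higher, with 245 and 735 (3.002-fold higher).

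Genes that retinoic acid is known to induce were lower or near level. Hox genes give cells their position along the body axis, in the order of their groups. Of 8 measured Hox genes of groups 1 to 4, 7 were lower, 3 of them 2-fold, with a median of -0.68. All 11 measured genes of groups 5 to 9 were lower, 3 of them 2-fold, with a median of -0.54, but 5 of the 11 had 1 array at the floor. The shares over all measured genes were 48.5% lower and 3.15% 2-fold lower. Hoxb4 had 1080.1 in the control and 501 with MPA (2.15-fold lower), and Hoxb3 1274 and 613 (2.08-fold lower), each with 1 of 1 further probe set lower (Hoxb4 -1.76 as the mean). Hoxa3 and Hoxc6, with log2 differences of -1.18 and -1.20, had 0 of 1 and 0 of 2. Hoxa3 stood at -0.58 (mean) and 0.017 (specific), and Hoxc6 was higher, at 0.33 (mean) and 1.35 (specific). Hoxb1, the first of its cluster to respond, had 2262 and 1982, and Hoxc4 3862 and 3746. The lowest gene of the whole comparison was Hoxb5os, which is transcribed antisense within the Hoxb cluster, with 1187 and 128, 9.31-fold lower, with no further probe set above the floor. At day 5 Hoxb4 had been at 182, Hoxb3 at 215 and Hoxb5os under the floor, so that the MPA signals of Hoxb4 and Hoxb3 lay between the day 5 and the day 6 control signals.

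Among genes of retinoic acid handling 11 of 16 were lower, where 48.5% of all measured genes were, with a median of -0.22. Of the 11, 2 were 2-fold lower, where 3.15% of all measured genes were. Those 2 encode the cellular binding proteins. Crabp2 had 35426 in the control and 14248 with MPA (2.49-fold lower), and Crabp1 2189 and 855 (2.56-fold lower). Direct responders of the pathway stayed close: Cyp26a1, of the enzyme that clears retinoic acid, had 15006 and 12274, and Rarb, of a receptor, 1818 and 1549. At day 5 Crabp2 had been at 746 and Rarb under the floor. Nr2f1, of a COUP-TF factor, was the lowest of the related factors, with 778 and 257 (3.03-fold lower), whereas Meis1, Pbx2 and Tshz1, which cooperate with Hox proteins or accompany them, had log2 differences of -0.16, -0.23 and 0.13.

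Markers of neural progenitors were lower in 11 of 18 members, 8 of them at least 2-fold, with a median of -0.87. The other 7 were higher, 0 of them 2-fold. Over all measured genes 48.5% were lower, with 4.02% 2-fold higher and 3.15% 2-fold lower. Sox2, Sox1 and Sox3, which maintain neural progenitors, had 2687 and 1265 (2.12-fold lower), 346 and 159 (2.18-fold lower) and 453 and 236 (1.92-fold lower, -0.34 as the mean). Sox2 also belongs to the pluripotency list. Irx3 had 5478 and 2734 (2.004-fold lower), Pax6 518 and 157 (3.29-fold lower, -0.53 as the mean, with 1 of 2 further probe sets lower), and Zic1 321 and 83.7 (at least 3.704-fold lower). Among genes of neural crest and of the dorsal neural tube, Pax3 had 387 and 116 (3.35-fold lower, 2 of 2 further probe sets lower) and Ednrb 1312 and 646 (2.03-fold lower, -0.94 as the mean). Msx1, Msx2, Wnt3a and Tfap2c of the same list were 2-fold higher (Tfap2c 0.93 when specific), and its median of 0.27 turned to -0.15 with specific probe sets. Of 10 measured proneural and neuron genes 5 were higher, 0 of them 2-fold, and 5 lower, 2 of them 2-fold, with a median of -0.09. The lowest was the proneural gene Neurog1, with 343 and 47.8, at least 3.95-fold lower. At the floor on both arrays were 9 of 19 genes of this list, among them Tubb3 and Dcx, beside 5953 of all 18193 genes.

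Mesodermal genes that had appeared by day 6 were lower in part. Meox1, of somite formation, had 1712 in the control and 393 with MPA (4.36-fold lower), Foxc2 2491 and 1061 (2.35-fold lower) and Tcf15 1050.1 and 515 (2.04-fold lower). Of the 18 paraxial mesoderm genes 8 were measured, 5 of them 2-fold lower and Cdx2 at least 2-fold higher, and Tbx6 and Msgn1, which define that tissue, were under the floor on both arrays. The list's median of -1.02 was 0.098 with the floor at the 25th percentile, which lets in more genes. Zeb2 and Snai2, of the transition from epithelium to mesenchyme, had 681 and 179 (3.81-fold lower, 3 of 3 further probe sets lower) and 363 and 164 (2.21-fold lower). By other probe sets Zeb2 stood at -1.25 (mean) and Snai2 at -0.65 (mean) and -0.15 (specific). The shares over all measured genes were 48.5% lower and 3.15% 2-fold lower. Of 18 measured genes of the mesenchyme and fibroblast list 12 were lower, 4 of them 2-fold, with a median of -0.35. The other 6 were higher, 1 of them 2-fold. Among these 6 were Col1a2 at 1218 and 1428, Vim at 12046 and 13596 and Dcn at 521 and 1076 (2.07-fold higher). Of the cardiac and smooth muscle list 7 of 20 genes, and of the blood list 10 of 13, were at the floor on both arrays, beside 5953 of all 18193 genes. The 13 measured cardiac and smooth muscle genes were 6 higher, 1 of them 2-fold, and 7 lower, 2 of them 2-fold, with a median of -0.27.

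Endoderm and epithelial markers were higher in more members than they were lower. Over all measured genes 51.5% were higher and 4.02% 2-fold higher. Of 12 measured endoderm factors 8 were higher, with Sox17 (2.23-fold higher, 1 of 1 further probe set higher, mean 0.95) as the 1 at 2-fold. The other 4 were lower, down to -0.75 and 0 of them 2-fold, and the median was 0.33. Foxa1 had 2705 in the control and 4076 with MPA, and Gata6 2993 and 3447. Of 20 epithelial genes 13 were higher, 3 of them 2-fold, and 7 lower, down to -0.82 and 0 of them 2-fold, with a median of 0.31. Cldn4, of a tight junction claudin, had 987 and 2802 (2.84-fold higher), and St14, of a membrane protease, 645 and 1514 (2.35-fold higher). Grhl2, of an epithelial transcription factor, had 312 and 666 (2.13-fold higher), but its 1 further probe set was not higher and its mean was 0.0996. Krt8 had 21199.6 and 31575, and Cdh1, of E-cadherin, 8119 and 10647. Epcam, at -0.10 by its main probe set, had a mean of 0.66. Of 17 genes of secreted liver and yolk sac products 12 were measured, beside 12240 of all 18193 genes. Of the 12, 8 were higher, 3 of them 2-fold, and 4 lower, 0 of them 2-fold, with a median of 0.13. Ttr, of transthyretin, had 342 and 2415 (7.06-fold higher, 3 of 3 further probe sets higher), and Rbp4, of its retinol-carrying partner, 182 and 548 (3.004-fold higher). Apoa4, of an apolipoprotein, had 23.2 and 313 (at least 3.61-fold higher, 0.99 when specific). The defining products Alb and Afp were under the floor on both arrays. Sct, of the gut hormone secretin, had 203 and 1124 (5.53-fold higher), while 10 of 15 hormone genes were at the floor on both arrays, beside 5953 of all 18193 genes. The 5 measured hormone genes were 3 higher and 2 lower, with a median of 0.23.

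Pluripotency and Nodal genes, which fall away as endoderm forms, went both ways. Of 19 measured pluripotency genes 12 were higher and 7 lower, with a median of 0.16 (-0.02 with specific probe sets). Nanog had 446 in the control and 161 with MPA (2.76-fold lower), whereas Tbx3 had 468 and 1125 (2.404-fold higher, mean 0.27, with 1 of 3 further probe sets higher). Lefty1, of a Nodal inhibitor, had 25814 and 9942 (2.596-fold lower), while Lefty2 had 4931 and 6575 and Nodal itself 5943 and 5942.

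The largest single differences included genes outside these lists. Synm, of the intermediate filament protein synemin, was the highest gene above the floor on both arrays, with 123 in the control and 1175 with MPA, 9.54-fold higher (mean 2.25). Zfp365, of a zinc finger protein, had 129 and 916 (7.12-fold higher), and Mapkapk3, of a kinase downstream of p38, 309 and 1531 (4.96-fold higher, 1.31 when specific). Ifi35, an interferon-induced gene, had 131 and 737 (5.61-fold higher) by its main probe set, but 0.98 as the mean and 0.26 when specific, and its list had a median of 0.25 over 17 genes. In that list the antigen-presenting H2-K1 was lower, with 5177 and 1778 (2.91-fold lower). Among genes with the control array at the floor, Tfec had 539 with MPA, at least 6.22-fold higher, and Apoc1 529, at least 6.098-fold higher. On the lower side, Mgarp, of a mitochondrial transport protein that HIF is known to induce, had 1161 and 234 (4.95-fold lower), Lsm7, of an RNA-processing ring, 1259.8 and 242 (5.21-fold lower), and Cxcl11, of a chemokine, 751 and 155 (4.85-fold lower). Igfbp2, chosen after its values were seen for its signal above 5000 and the gene of a binding protein of insulin-like growth factors, had 30816 and 10909 (2.82-fold lower).

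Agreement between probe sets of a gene depended on signal and direction. It measures the spread between probe sets, not that between cultures. Of 276 further probe sets of the higher genes 63.8% were higher too, and of 237 of the lower genes 81.4% were lower too. For genes under 2-fold 60.0% had the same direction. At least 2-fold in the gene's direction were only 49 of the 276 and 64 of the 237. Among genes with a signal above 1000 on 1 array the shares were 76.9% and 87.5%. The SD of log2 differences between probe sets of a gene was 0.46. Of the 121 genes named here that were 2-fold apart, log2(signal + floor), which shrinks the differences of dim genes, ended 26 calls, quantile normalization 8, median centring 3 and the floor at the 65th percentile 11. Those of the first kind were Bcl2l1, Cdx2, Cryab, Dcn, Derl3, Ednrb, Fasn, Grhl2, Hmox1, Hoxa3, Hoxb3, Hoxb4, Hoxc6, Impdh1, Irx3, Max, Myc, Nkd1, Nr4a1, Pmaip1, Rrp9, Snai2, Sox1, Sp8, Tcf15 and Wnt3a. The share of genes at least 2-fold apart was 15.8% for signals between 200 and 500 and 3.81% above 5000.

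**Figure D4:**
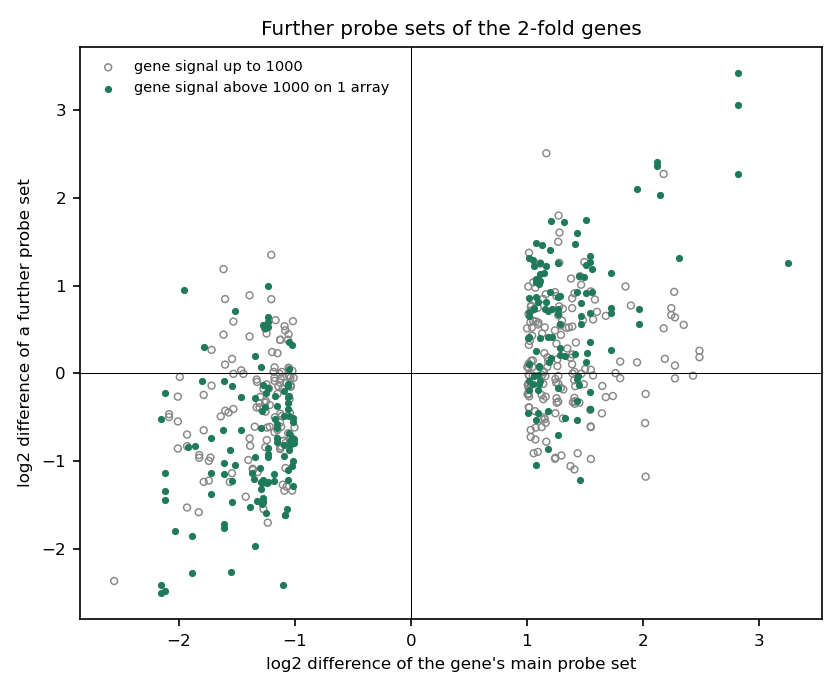
Each point is a further probe set of a gene at least 2-fold apart at day 6, with the log2 difference of the gene's main probe set on the x axis and its own on the y axis, MPA minus control. Filled green points are genes with a signal above 1000 on 1 array. Points in the lower left and upper right share the direction: 81.4% of those left of 0 are below it and 63.8% of those right of 0 are above it.

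The pair of day 8 arrays, with 3 days of MPA, shares no array with the day 6 pair. Of the genes 2-fold higher at day 6 and measured at day 8, 261 of 465 (56.1%) were higher at day 8, and of those 2-fold lower 175 of 343 (51.0%) were lower, where 53.1% of all 11006 genes measured at both days had the same direction. At least 2-fold higher at both days were 39 genes (7.93% of the day 6 and 8.32% of the 469 day 8 genes). Another 49 were 2-fold lower at both (12.7% of the day 6 and 12.2% of the 401 day 8 genes). Of all genes measured at day 6, 4.02% were 2-fold higher and 3.15% 2-fold lower. A further 80 genes were 2-fold apart in opposite directions, 31 of them higher at day 6 and 49 lower at day 6. The lists divided as well. The p53 list kept its sign (median 0.69 at day 6 and 0.26 at day 8), as did neural progenitors (-0.87 and -2.25) and amino acid supply (-0.76 and -0.42). Cholesterol synthesis was level at day 8 (0.06). Glycolysis, hypoxia targets and Wnt targets had the opposite sign, with day 8 medians of 0.77, 1.21 and -1.38. The controls themselves differed between the days for these genes. Bnip3 had 13658 in the day 5 control, 14278 and 2921 in control and MPA at day 6, and 1803 and 13338 at day 8. Pfkp had 1958, 2421 and 639, then 233 and 1277. Sp5 had 659, 153 and 1022, then 691 and 207. So the day 6 MPA signal of Bnip3 and Pfkp lay between the control signals of day 6 and day 8, while that of Sp5 lay above all 3 controls. Other members of these lists differed in this. The day 6 MPA signals of Hk2 (2346) and Pgk1 (29536) lay below all 3 controls, the lowest being day 8 (3083 and 31146). Ccnd1 of the Wnt list had 1142 with MPA at day 6, above the day 6 control (788) but below those of day 5 (2941) and day 8 (3457). Replication genes, level at day 6, stood at -0.46 at day 8, and ribosome biogenesis genes at -0.47. The difference between the days was not tested, since each has 1 array per group.

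**Figure D5:**
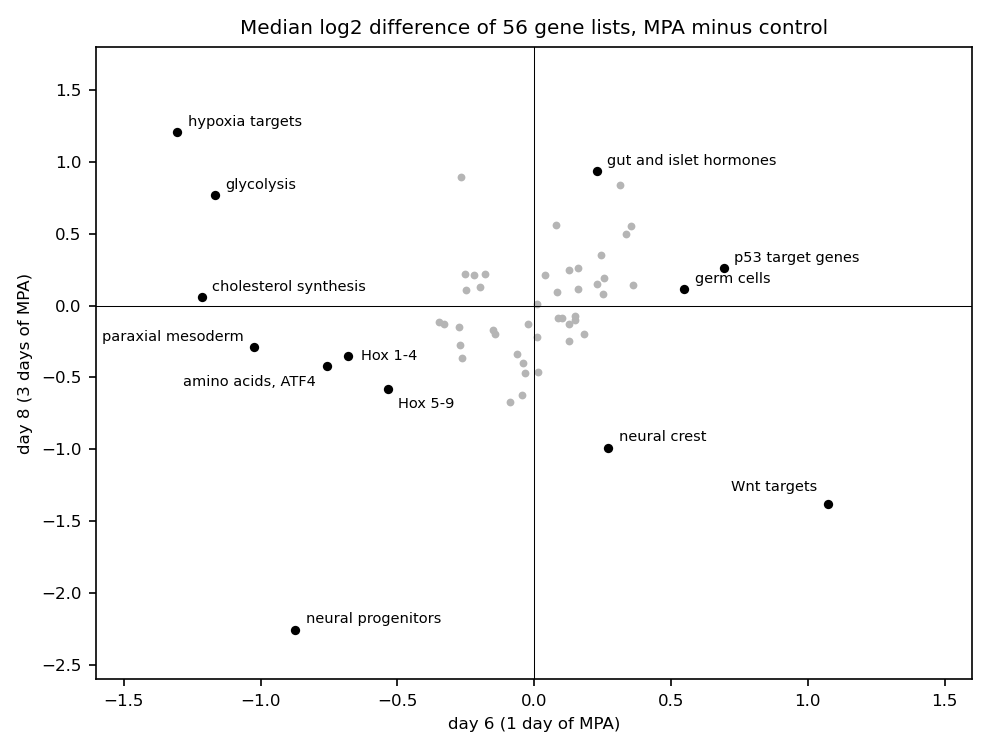
Median log2 difference, MPA minus control, of the 56 lists with at least 5 measured genes at both days, with day 6 on the x axis and day 8 on the y axis. Hypoxia targets and glycolysis lie at the upper left and Wnt targets at the lower right, where the sign differs between the days, and neural progenitors lie at the lower left.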

How the data were processed

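Total RNA, 100 ng per sample, was turned into biotin-labelled cRNA by in vitro transcription from the 3' end and read on an Affymetrix mouse array, per the labels' protocols. The values that the authors deposited are linear intensities, 1 for each probe set of each array, and MAS5 is the tool named in the submitters' processing notes. Its version and settings were not stated there. In MAS5 output dim probe sets vary widely on a log scale, which is why a floor was set.

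Of 45101 probe sets, 64 were controls, 34945 had 1 gene symbol, 932 several and 9160 none, and the last 2 kinds were left out. Symbols were updated through RefSeq for the 34741 probe sets that matched by gene ID. Each gene was taken from its probe set with the highest mean over the 5 arrays. A value is log2 of the floored signal, MPA minus control, with no test. The 59 lists hold 1052 different names, of which 963 matched a gene, 14 through a synonym.

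The comparison, the lists and the genes fixed by name were chosen with earlier results of these data known. Named by rule were the 12 highest and 12 lowest genes with both arrays above the floor, the 8 largest bounds each way, up to 6 members per list by size of difference, and the genes fixed by name. Other genes in the text were chosen after their values were seen, for their place in a pathway or as the exceptions of a list: Afp, Alb, Apcdd1, Atf5, Axin2, Car9, Ccng1, Cdh1, Cdkn1b, Cdkn2c, Cebpb, Col1a2, Cyp51, Dcx, Ddb2, Ednrb, Epcam, Fasn, Fdps, Fgfr2, Hoxc4, Hsd17b7, Hsp90aa1, Hspa5, Hspa8, Id1, Id2, Id3, Igfbp2, Insm1, Irx3, Krt8, Ldha, Lef1, Meis1, Msgn1, Neurog3, Nkd1, Nodal, Nupr1, Pax4, Pbx2, Plin2, Rnf43, Rrm2b, Scd1, Sesn1, Sesn2, Slc16a3, Slc1a4, Slc2a3, Slc38a2, Sox3, Sp8, Srebf2, Tbx6, Tshz1, Tubb3, Vegfa, Vim and Wnt3a.

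Alternatives were the floor at the 25th or 65th percentile, log2(signal + floor), quantile normalization, median centring, the mean over probe sets, the brightest probe set at day 6, leaving out probe sets named _s_at, _x_at or _a_at, and 1.5-fold or 3-fold as the threshold. The scripts, in Python 3.11.15 with numpy 2.4.6, pandas 2.3.3, scipy 1.17.1 and matplotlib 3.10.9, were tested on simulated signals.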

Additional observations from a re-analysis of the deposited data

Results flagged for a closer look

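The results here stood out because the log2 difference, MPA minus control, had opposite signs after 1 day and after 3 days of MPA: at least 2-fold each way for a gene, or a list median past 0.5 each way. The difference between the days was not tested, since each day has 1 array per group.

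The glycolysis list had medians of -1.17 at day 6 and 0.77 at day 8. Its genes past 2-fold at both days, with the day 6 value first, were Pfkp at -1.92 and 2.46, Pdk1 at -1.62 and 1.56, Pfkl at -1.25 and 1.61 and Aldoa at -1.28 and 1.22, and further Tpi1 at -1.18 and 1.34 and Ldha at -1.17 and 1.02. Outside the list, Aldoc stood at -2.98 and 1.04. The hypoxia list had medians of -1.30 and 1.21. Within it, Bnip3 at -2.29 and 2.89, Ankrd37 at -2.28 and 1.42 and Egln3 at -2.03 and 1.24 led, followed by Ero1a at -1.89 and 1.501, Egln1 at -1.55 and 1.24 and Ddit4 at -1.58 and 1.47.

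Wnt target and feedback genes had medians of 1.07 and -1.38. The members were Sp5 at 2.74 and -1.74, Tnfrsf19 at 1.42 and -1.70, Lef1 at 1.39 and -1.43, Wnt3a at 1.08 and -1.62 and Nkd1 at 1.07 and -1.59. Higher at day 6 and lower at day 8 were also Msx1 at 1.48 and -3.22, Notch1 at 1.59 and -1.71 and Sox17 at 1.16 and -1.68, of which Msx1 is a BMP responder, Notch1 a receptor and Sox17 an endoderm factor. Lower at day 6 and higher at day 8 were Ier3 at -2.43 and 1.46, Igfbp2 at -1.498 and 1.12 and Upp1 at -2.26 and 1.88.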

How the results depend on the processing

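The counts of 492 genes 2-fold higher and 385 lower moved with the floor and the threshold. A floor at the 25th percentile gave 2264 and 2420, one at the 65th percentile 301 and 195, a 1.5-fold threshold 1566 and 1326, and a 3-fold threshold 85 and 71. A lower floor lets in dim probe sets. The other 6 alternatives gave 389 to 485 higher and 312 to 492 lower. Of 471 list medians under alternatives, 33, of 21 lists, had the other sign. For 19 of these lists the main median lay within 0.27 of 0. The other 2 changed sign with the floor at the 25th percentile: endocrine factors, to 0.24, and paraxial mesoderm, to 0.098. For single genes 80 of 1441 values moved. Of genes 2-fold apart, without probe sets named _s_at, _x_at or _a_at, Srxn1 changed sign to -0.61, Hoxa3 to 0.017 and Hoxc6 to 1.35, the last also to 0.33 as the mean over its probe sets. The cause was not tested. Each group is 1 array, so no spread between cultures, effect of the array or effect of the dish can be told apart from MPA. Dim genes are the least certain, and the 19 bright spike-in probe sets bound only the technical error of hybridisation. No paired analysis was possible because each group has 1 array and the result comes from no test.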
